A study of Mus musculus with 4 samples.

Results

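The zinc-dependent histone deacetylases (HDACs) are the enzymes that remove acetyl groups from lysines of histones and other proteins with the help of a zinc ion. The members described here are the 10 genes Hdac1, Hdac2, Hdac3 and Hdac8 (class I), Hdac4, Hdac5, Hdac7 and Hdac9 (class IIa), Hdac6 (class IIb) and Hdac11 (class IV), taken by symbol from the 47937 gene rows of the deposited count table. They are not the whole family, and class IIb is represented by Hdac6 alone. Their transcripts were measured by sequencing ribosomal RNA-depleted total RNA of mouse embryonic fibroblasts (MEF cells), with 2 libraries of untreated cells and 2 libraries of cells kept for 24 h in 50 µM genistein, a plant isoflavone known as an inhibitor of tyrosine kinases and of DNA topoisomerase 2. The untreated cells are labelled wild-type. For the exposed cells the genotype field repeats the treatment, and the labels name no vehicle for the untreated cells, although the study describes untreated cells of other assays as having received DMSO. The labels do not say whether the libraries of a group came from separate cultures, so the p-values measure the spread between these libraries, which may be technical. With only 2 libraries per group, the fit shares information on that spread across all tested genes and repeats, so no p-value rests on a gene's own replicates alone. Total counts were 28591958 to 31464284 per library.

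Class I enzymes are mostly nuclear and work inside corepressor complexes. HDAC1 and HDAC2 are close paralogues that sit in the SIN3, NuRD, CoREST and MiDAC complexes, HDAC3 is the deacetylase of the NCoR complex, and HDAC8 acts outside these complexes and deacetylates the cohesin subunit SMC3. Class IIa enzymes have weak deacetylase activity of their own. They bind MEF2 transcription factors, and kinases of the CaMK, protein kinase D and salt-inducible families phosphorylate them so that 14-3-3 proteins hold them in the cytoplasm. HDAC6 is a cytoplasmic enzyme that deacetylates alpha-tubulin, and HDAC11, the only class IV enzyme, efficiently removes long-chain fatty acyl groups from lysines.

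The 3 promoters below are shown because their genes had the largest rises (Hdac11, Hdac4) and the largest fall (Hdac2) among the members. Each is the RefSeq window on GRCm38.p6 from 250 bases before to 50 bases after the annotated start, written 5′ to 3′ on the strand of the gene. The windows are chr6:91156565-91156864 on the plus strand (Hdac11), chr1:92180292-92180591 on the minus strand (Hdac4) and chr10:36974294-36974593 on the plus strand (Hdac2). The Hdac4 window lies inside the gene as annotated here (chr1:91928779-92195699), at a start well downstream of its outermost one. The Hdac11 window likewise follows a start downstream of the outermost one of that gene (chr6:91156665). Most of it, from the marked ATTGG onward, lies inside the gene as annotated here. Capitals mark 3 motifs searched on both strands, the GC box (letters GGGCGG), the CCAAT box (its name gives its letters) and the TATA box (letters TATAAA), and matches of different kinds were allowed to share bases.
Hdac11: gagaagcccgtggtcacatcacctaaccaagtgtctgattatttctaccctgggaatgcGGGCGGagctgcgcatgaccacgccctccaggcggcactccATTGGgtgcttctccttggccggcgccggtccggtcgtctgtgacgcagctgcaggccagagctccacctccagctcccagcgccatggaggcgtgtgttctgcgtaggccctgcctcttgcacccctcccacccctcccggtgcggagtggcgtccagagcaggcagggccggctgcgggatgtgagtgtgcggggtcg
Hdac4: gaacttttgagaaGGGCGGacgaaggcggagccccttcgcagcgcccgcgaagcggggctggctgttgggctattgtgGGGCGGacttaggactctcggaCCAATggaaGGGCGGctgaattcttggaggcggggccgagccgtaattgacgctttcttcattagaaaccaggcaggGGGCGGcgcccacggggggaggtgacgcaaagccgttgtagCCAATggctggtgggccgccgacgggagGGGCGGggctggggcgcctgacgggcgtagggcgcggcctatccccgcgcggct
Hdac2: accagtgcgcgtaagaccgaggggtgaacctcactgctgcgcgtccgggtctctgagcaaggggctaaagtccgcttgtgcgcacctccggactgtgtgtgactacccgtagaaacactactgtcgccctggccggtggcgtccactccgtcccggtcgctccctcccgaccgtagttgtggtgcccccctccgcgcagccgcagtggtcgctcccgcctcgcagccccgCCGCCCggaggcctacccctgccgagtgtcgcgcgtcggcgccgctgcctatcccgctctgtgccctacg
The Hdac4 window held 5 GC boxes and 2 CCAAT boxes, the Hdac11 window held 1 of each, and the Hdac2 window held 1 GC box and no CCAAT box. RefSeq windows were at hand for 8 of the 10 genes (12 windows, since Hdac7 has 4 and Hdac9 has 2), and Hdac1 and Hdac3 were not among them. A GC box was found in 6 of the 12 windows, a CCAAT box in 5 and a TATA box in 2. Of all 32851 windows in the table, 35.7% held a GC box, 37.4% a CCAAT box and 13.6% a TATA box. The Hdac6 window, of a gene that was lower with genistein, carried the same numbers of GC and CCAAT boxes as that of Hdac4. A match is a string of letters and no measured binding site.

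Genistein moved the members in both directions. Of the 10 genes, 9 had enough reads to be tested: 3 were called higher (Hdac4, Hdac8, Hdac11), 4 were called lower (Hdac2, Hdac3, Hdac6, Hdac7) and 2 were not called (Hdac1, Hdac5). A call is an adjusted p-value under 0.05 in edgeR's quasi-likelihood test, adjusted by Benjamini-Hochberg over all 17358 tested genes and repeats. By the same rule 33.5% of the 16240 tested genes were called higher and 38.2% lower, so calls were common throughout the transcriptome. The groups did not overlap for any tested member, with 4 higher and 5 lower in genistein, whereas 40.7% of all tested genes lay entirely higher and 44.6% entirely lower. Under the thresholds of the study (adjusted p-value under 0.05, absolute log2 fold change over 1 and mean normalised count over 100), Hdac11 was the only member to pass. Those thresholds were passed by 3.92% of tested genes in the higher direction and by 4.16% in the lower direction. The median log2 fold change was -0.08 over the 9 tested members and -0.03 over all tested genes. The median size of a change regardless of sign was 0.44 over all tested genes.

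**Figure D1:**
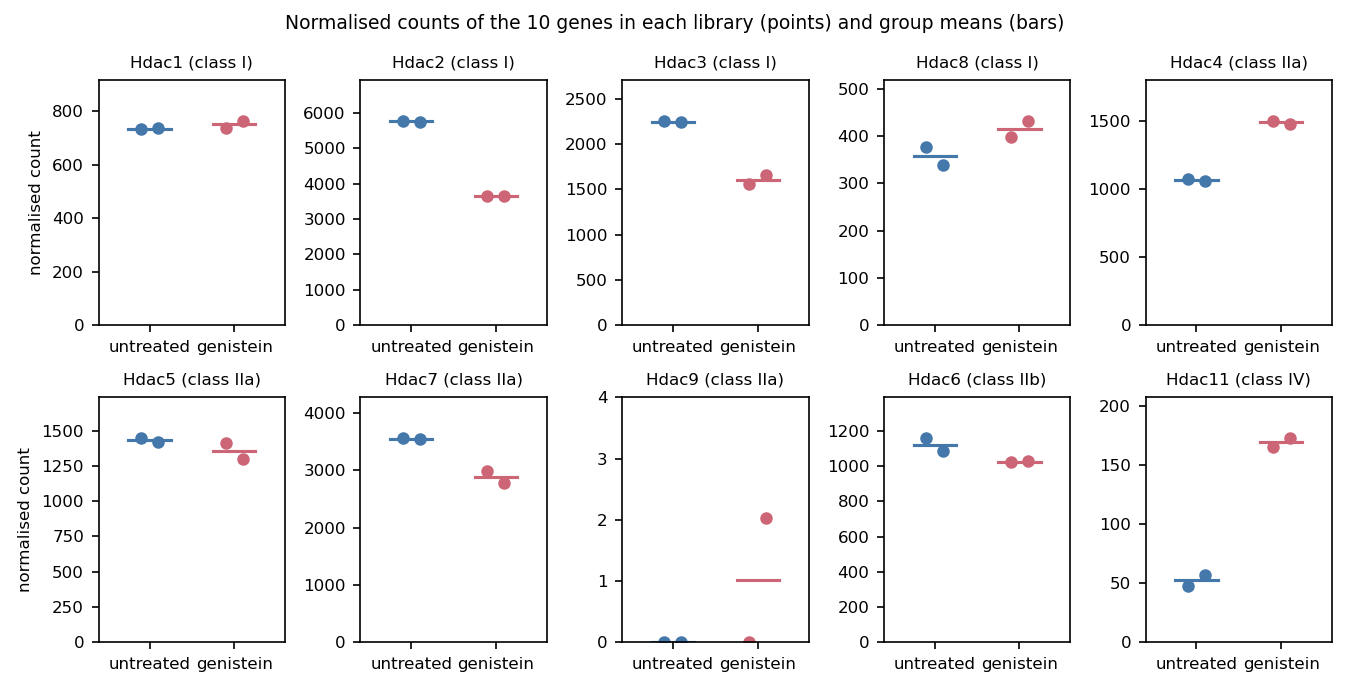
Normalised counts (vertical axes, each starting at 0) of the 10 genes in the untreated and genistein libraries, with points for libraries and bars for group means of 2 libraries. Hdac11 lies at 47.9 and 57.2 against 166 and 173, Hdac2 at 5772 and 5748 against 3661 and 3636, and Hdac9 is at 0 in 3 of the 4 libraries.

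**Figure D2:**
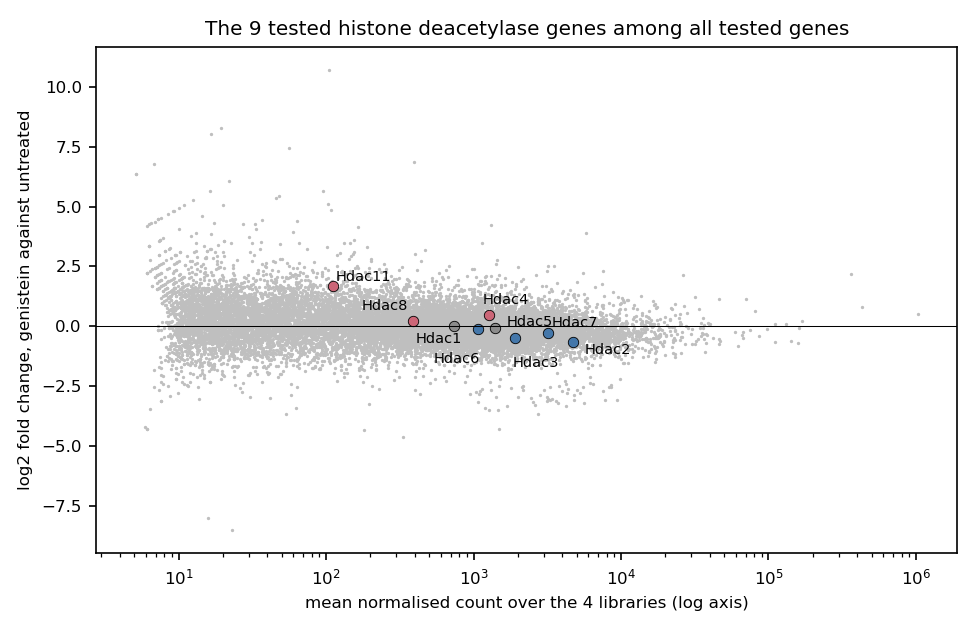
Log2 fold change (vertical axis, genistein against untreated) against mean normalised count (horizontal log axis) for all 16240 tested genes in grey, with the 9 tested members coloured red if called higher, blue if called lower and grey if not called. All members but Hdac11 lie inside the dense band of genes, and Hdac11, at 1.69, lies at its upper edge.

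Hdac2 had the highest level of the members in untreated cells and fell more than any other of them. Hdac2 (ENSMUSG00000019777, chr10:36974544-37001889, plus strand) had 5772 and 5748 normalised counts in untreated 1 and 2, against 3661 and 3636 in genistein 1 and 2. A normalised count is the count scaled to the mean effective library size. Both genistein libraries lay far under both untreated libraries, and replicates of a group nearly coincided. Its log2 fold change was -0.66 (standard error, SE, 0.03) with a 95% interval of -0.73 to -0.59 (adjusted p = 1.74e-11, edgeR), which leaves 0.633 of the untreated level. In absolute size this exceeded the change of 67.3% of tested genes. Leaving out each library in turn kept the value between -0.67 and -0.65.

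Hdac1, whose product shares the complexes of HDAC2, gave no call. Hdac1 (ENSMUSG00000028800, chr4:129516104-129542713, minus strand) had 731 and 735 normalised counts untreated and 736 and 763 with genistein, so both genistein values lay above the untreated values by a margin no larger than the spread of the genistein pair. The log2 fold change was 0.03 (SE 0.06, 95% interval -0.09 to 0.15, adjusted p = 0.633, edgeR). It lay between 0.01 and 0.06 with single libraries left out, lowest without genistein 2 and highest without genistein 1, and reached 0.10 with library totals as the scale, without a call. This measurement is uncertain, because the processed pseudogene Gm10093 (chr17:78491582-78493025, plus strand) is nearly identical to the coding sequence. It differed at 9 of 1444 aligned bases, and 705 of its 1295 stretches of 150 bases, the read length, occur unaltered in an Hdac1 transcript. The reads were paired, so a fragment can cover more than a single stretch. The share of read pairs that fit both genes was not computed. The 120 bases below are the part of the coding sequence where the 2 genes differ most, at chr4:129522975-129523094 on the minus strand in Hdac1 and at chr17:78491944-78492063 on the plus strand in Gm10093, and capitals mark the 6 bases that differ.
Hdac1: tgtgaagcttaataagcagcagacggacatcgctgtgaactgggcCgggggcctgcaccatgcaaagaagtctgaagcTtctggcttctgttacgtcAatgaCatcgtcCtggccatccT
Gm10093: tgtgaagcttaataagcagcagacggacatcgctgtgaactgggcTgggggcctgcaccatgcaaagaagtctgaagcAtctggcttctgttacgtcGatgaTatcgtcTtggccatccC
Gm10093 was credited with 921, 855, 861 and 845 reads (untreated 1 and 2, genistein 1 and 2), more than the 732, 694, 785 and 754 reads of Hdac1 itself. Its normalised counts were 920 and 905 untreated and 807 and 855 with genistein, a log2 fold change of -0.14 that was called lower (adjusted p = 0.0428). With its reads added to Hdac1 the log2 fold change turned to -0.06 (adjusted p = 0.247), so Hdac1 was not called either way. How the counter divided reads between the 2 genes was not tested. The processed pseudogenes AC125456.1 (96.3% identity over 1450 bases) and Gm4864 (94.3% over 1470 bases) are also long copies of Hdac1. Neither is among the counted genes, so reads from them could not be seen or added.

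Hdac3, the catalytic subunit of the NCoR complex (ENSMUSG00000024454, chr18:37935844-37955016, minus strand), fell as well. Untreated cells had 2256 and 2238 normalised counts and genistein cells had 1555 and 1655. The groups stood well apart, although the genistein pair was looser than the untreated pair (1605 ± 70.9 against 2247 ± 12.4, SD, n = 2). The log2 fold change was -0.49 (SE 0.04, adjusted p = 2.96e-08, edgeR), or 0.714 of the untreated level with a 95% interval of 0.671 to 0.760.

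Hdac8, the cohesin deacetylase (ENSMUSG00000067567, chrX:102284639-102505359, minus strand), moved the other way from Hdac2 and Hdac3. It had 377 and 340 normalised counts untreated and 399 and 432 with genistein. The gap between the groups was narrower than the distance between the replicates of either group. The log2 fold change was 0.21 (SE 0.08, 95% interval 0.04 to 0.38, adjusted p = 0.0304, edgeR). The call was lost in DESeq2 (adjusted p = 0.199), without the filter on low counts (0.0597), without untreated 2 (0.25) and without genistein 2 (0.149), while the value stayed between 0.14 and 0.28 on leaving out single libraries. The median log2 fold change of the 4 class I genes was -0.23. It lies between the values of Hdac3 and Hdac1, so it depends on the uncertain Hdac1 count. This median was not computed with the reads of Gm10093 added.

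**Figure D3:**
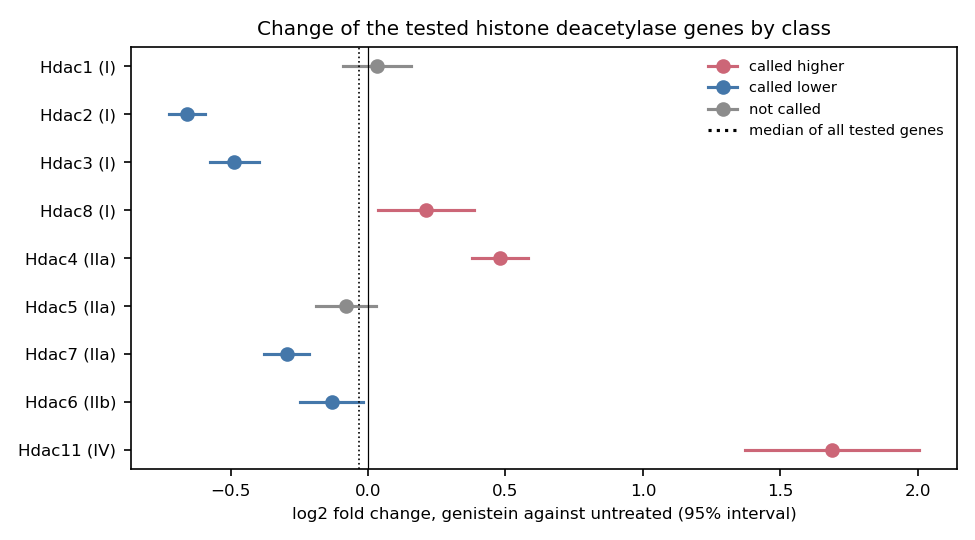
Log2 fold change of the 9 tested members (points) with 95% intervals (lines), ordered by class (in brackets), with a dotted line at the median of all tested genes (-0.03). The intervals of Hdac1 and Hdac5 span 0, those of Hdac6 and Hdac8 end close to 0, and Hdac11 stands apart at 1.37 to 2.01.

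The class IIa genes split in 3 ways. Hdac4 (ENSMUSG00000026313, chr1:91928779-92195699, minus strand), a signal-dependent repressor of MEF2 target genes, rose from 1076 and 1063 normalised counts to 1501 and 1481. Replicates were tight and the groups far apart, and the increase was 1.39-fold (95% interval 1.3 to 1.5, log2 fold change 0.48, SE 0.05, adjusted p = 1.51e-07, edgeR). Hdac7 (ENSMUSG00000022475, chr15:97792664-97844502, minus strand), best known from endothelial cells and thymocytes, fell from 3563 and 3540 to 2995 and 2789 normalised counts. Its log2 fold change was -0.30 (SE 0.04, adjusted p = 3.66e-06, edgeR), and per kilobase of exon it had the highest class IIa level in both groups. Hdac5 (ENSMUSG00000008855, chr11:102194432-102230166, minus strand), the close relative of Hdac4, had 1446 and 1422 normalised counts untreated and 1415 and 1296 with genistein. Genistein 1 lay only just under the untreated pair and genistein 2 further below. The log2 fold change was -0.08 with a 95% interval of -0.19 to 0.03 (adjusted p = 0.167, edgeR), and it reached a call only without genistein 1 (-0.14, adjusted p = 0.0401). Without genistein 2 it was -0.018 (adjusted p = 0.797), and with library totals as the scale it was -0.012 (0.85). The median log2 fold change of the 3 tested class IIa genes was -0.08, which is the value of Hdac5.

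Hdac9 (ENSMUSG00000004698, chr12:34047580-34917095, minus strand), the class IIa gene known from muscle and brain, was hardly detected. It had 0 reads in both untreated libraries and in genistein 1, and 2 reads in genistein 2. A count of 0 allows up to 3 reads, which is 3.0 normalised counts in untreated 1, 3.18 in untreated 2 and 2.81 in genistein 1. Hdac9 was removed by the filter on low counts and no fold change is given. Such limits cover counting error only.

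Hdac6, the tubulin deacetylase of class IIb (ENSMUSG00000031161, chrX:7930120-7947889, minus strand), changed least among the called members. It had 1160 and 1086 normalised counts untreated and 1022 and 1028 with genistein, so the untreated pair was the looser and its lower library lay close to the genistein values. The log2 fold change was -0.13 (SE 0.05, 95% interval -0.25 to -0.02, adjusted p = 0.0366, edgeR). With library totals as the scale the value shrank to -0.06 (adjusted p = 0.326), with scaling factors from genes alone to -0.09 (0.146) and without untreated 1 to -0.09 (0.246), each without a call. The call was also lost at values close to the main one, in DESeq2 (-0.14, adjusted p = 0.145), without genistein 1 (-0.12, 0.102) and without genistein 2 (-0.14, 0.0603).

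Hdac11 showed the largest change of all members from the lowest tested level. This class IV gene (ENSMUSG00000034245, chr6:91156665-91174692, plus strand) had 48 and 54 reads untreated and 177 and 171 with genistein, or 47.9 and 57.2 against 166 and 173 normalised counts. Both genistein libraries stood far above both untreated libraries. The increase was 3.23-fold (95% interval 2.59 to 4.02, log2 fold change 1.69, SE 0.15, adjusted p = 3.40e-08, edgeR). In absolute size it exceeded the change of 95.7% of tested genes. Leaving out single libraries gave 1.56 to 1.81 and kept the call each time. The mean normalised count was 111, near the study's minimum of 100, and without either genistein library the mean fell under it.

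Genes that share exon positions with members took few reads. Gm26720 overlaps 22.4% of the exon bases of Hdac4 and Gm14573 2.49% of those of Hdac11, both on the opposite strand, and both had 0 reads in every library. Gm44002, opposite 15.4% of the exon bases of Hdac11, had 0 reads without genistein and 1 and 4 reads with it. The microRNA gene Mir8101 lies within 111 exon bases of Hdac5 on the same strand and had 7 to 15 reads. Only Slc48a1, which meets Hdac7 over 29 bases on the opposite strand, was well counted, with 2065 to 2515 reads.

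Compared per length, the members spanned a wide range. Levels between genes are given here as normalised counts per kilobase of annotated exon. In the untreated cells the order was Hdac2 (1287), Hdac3 (554), Hdac7 (526), Hdac1 (213), Hdac6 (193), Hdac5 (163), Hdac8 (74.0), Hdac4 (67.6), Hdac11 (13.7) and Hdac9 (0). In the genistein cells it was Hdac2 (815), Hdac7 (428), Hdac3 (396), Hdac1 (218), Hdac6 (176), Hdac5 (154), Hdac4 (94.3), Hdac8 (85.8), Hdac11 (44.0) and Hdac9 (0.069). The ranges of neighbours did not overlap in either group, but with 2 libraries each no rank is more than a description. The place of Hdac1 depends on its uncertain count: with the reads of Gm10093 added it would stand at 478 untreated, still 4th, and at 459 with genistein, above Hdac7 and Hdac3. Hdac3 and Hdac7 exchanged places, as did Hdac8 and Hdac4. Hdac11 remained the lowest tested member after its increase, and Hdac2 the highest after its decrease.

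The sum of the 10 genes was 3092 ± 23.8 normalised counts per kilobase untreated and 2412 ± 5.95 with genistein (SD, n = 2), a ratio of 0.780. The ratio of genistein to untreated was 0.712 for class I, 0.894 for class IIa, 0.913 for class IIb and 3.23 for class IV. Class I made up 68.8% ± 0.156 of the summed level untreated and 62.8% ± 1.15 with genistein. The shares were 24.5% ± 0.0274 and 28.1% ± 1.26 for class IIa, 6.24% ± 0.241 and 7.31% ± 0.0498 for class IIb, and 0.442% ± 0.0582 and 1.83% ± 0.0587 for class IV. Hdac2 alone accounted for 41.6% of the sum untreated and 33.8% with genistein. Without the correction for length, class I made up 55.7% and 48.1%, so the size of a share depends on the scale while its order between the groups did not change in any of the scales tried. In bulk RNA, fewer cells with a transcript and less of it per cell cannot be told apart.

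**Figure D4:**
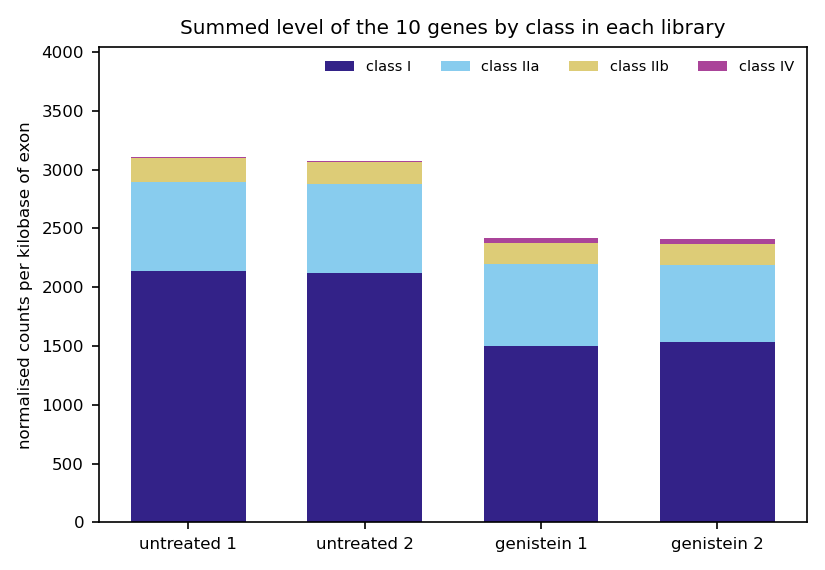
Stacked bars of the normalised counts per kilobase of exon (vertical axis, from 0) summed over the genes of each class in each library. The untreated bars reach 3109 and 3075, the genistein bars 2416 and 2408, and the class I block makes up most of the difference.

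Ratios of paralogues within a library do not depend on the scaling between libraries. The log2 ratio of Hdac1 to Hdac2 counts was -2.98 and -2.97 untreated and -2.31 and -2.25 with genistein, a difference of 0.69 that inherits the uncertainty of the Hdac1 count. The log2 ratio of Hdac4 to Hdac5 was -0.43 and -0.42 untreated and 0.09 and 0.19 with genistein, a difference of 0.56. Per kilobase of exon Hdac4 stood at 0.413 and 0.415 of the Hdac5 level untreated and at 0.589 and 0.635 of it with genistein. An exact two-sided permutation test of 2 against 2 libraries cannot go below p = 0.333, the value of both of the 2 ratios tested, and 0.333 after adjustment over them. The ratio of Hdac7 to Hdac9 could not be formed with Hdac9 at 0.

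The partners of the class I enzymes were mostly lower. Across the SIN3, NuRD, Rbbp, CoREST, NCoR and MiDAC lists, 42 genes were tested. Of these, 7 were called higher and 27 lower, with a median log2 fold change of -0.25. Of all tested genes, 33.5% were called higher and 38.2% lower, and the median was -0.03. In the SIN3 complex 10 of 14 genes fell and 2 rose (median -0.30). Sinhcaf (-0.94) and the histone mark reader Ing1 (-0.63) fell most, and the DNA-binding subunits Arid4b (0.47) and Arid4a (0.43) rose. In NuRD, which couples deacetylation to nucleosome remodelling, 8 of 10 fell and 1 rose (median -0.43). Mbd3 went from 2538 and 2447 to 1169 and 1166 normalised counts (-1.09, adjusted p = 1.37e-12), Cdk2ap1 fell by 1.03 on the log2 scale and Gatad2b rose by 0.31. The histone chaperones Rbbp4 (-0.17) and Rbbp7 (-0.72), shared by SIN3 and NuRD, both fell.

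In CoREST 4 of 9 genes fell and 2 rose (median -0.04), beside 38.2% called lower and 33.5% called higher among all tested genes. Rcor2, a scaffold that binds the demethylase LSD1, went from 498 and 522 to 124 and 111 normalised counts (-2.11, adjusted p = 9.52e-12), and Kdm1a, which encodes LSD1, fell by 0.49 on the log2 scale, whereas Gse1 (0.68) and Phf21a (0.52) rose. Of the 4 genes counted of the NCoR complex around HDAC3, 2 fell and 2 were not called. The subunits Tbl1xr1 (-0.63) and Tbl1x (-0.47) fell, as did Hdac3 itself, and the scaffold Ncor1 (0.04) and Gps2 (-0.06) were those without a call. All 3 MiDAC genes were called, with Trerf1 (0.91) and Elmsan1 (0.34) higher and the subunit Dnttip1 (-0.33) lower.

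The genes around class IIa enzymes split by role, against a background of 33.5% called higher and 38.2% called lower among all tested genes. Of 13 tested kinase genes, 9 rose and 2 fell (median 0.37). The highest values were those of Camk4 (1.58), which had only 4.0 and 6.35 normalised counts untreated and 20.6 and 10.1 with genistein, and Camk1d (1.31, from 342 and 331 to 892 and 773), and the 2 that fell were Camk2b (-0.55) and Prkd3 (-0.20). Of the 7 genes of 14-3-3 proteins, 6 fell and 1 rose (median -0.49). Ywhah (-0.77) and Ywhae (-0.69) fell most, while Sfn (0.95), which rose, had only 24.0 and 23.3 normalised counts untreated and 39.4 and 52.6 with genistein. Both tested MEF2 factors rose, Mef2a by 0.65 and Mef2d by 0.43, and Mef2b and Mef2c had at most 2.02 normalised counts in any library.

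Around HDAC6, the alpha-tubulin acetyltransferase gene Atat1 rose from 206 and 213 to 427 and 432 normalised counts (1.04, adjusted p = 1.43e-08), and Sirt2, the NAD-dependent tubulin deacetylase, rose by 0.26. Among the 7 sirtuins, the deacetylases that use NAD in place of zinc, Sirt2 and Sirt7 (0.28) rose, Sirt6 (-0.39) fell and 4 were not called (median 0.08). Among the 11 acetyltransferases, which add the groups that HDACs remove, 4 rose and 5 fell (median -0.11). Kat2b (0.70) and Kat6b (0.65) rose most. Kat2a, the paralogue of Kat2b, fell from 2208 and 2221 to 1057 and 973 normalised counts (-1.12), and Kat5 fell by 0.55. Ep300 rose by 0.28, and its paralogue Crebbp had a log2 fold change of 0.09 and no call. Over all partner and opposing lists 83 genes were tested, with 26 higher, 41 lower and a median of -0.17. The shares over all tested genes were 33.5% higher and 38.2% lower.

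**Figure D5:**
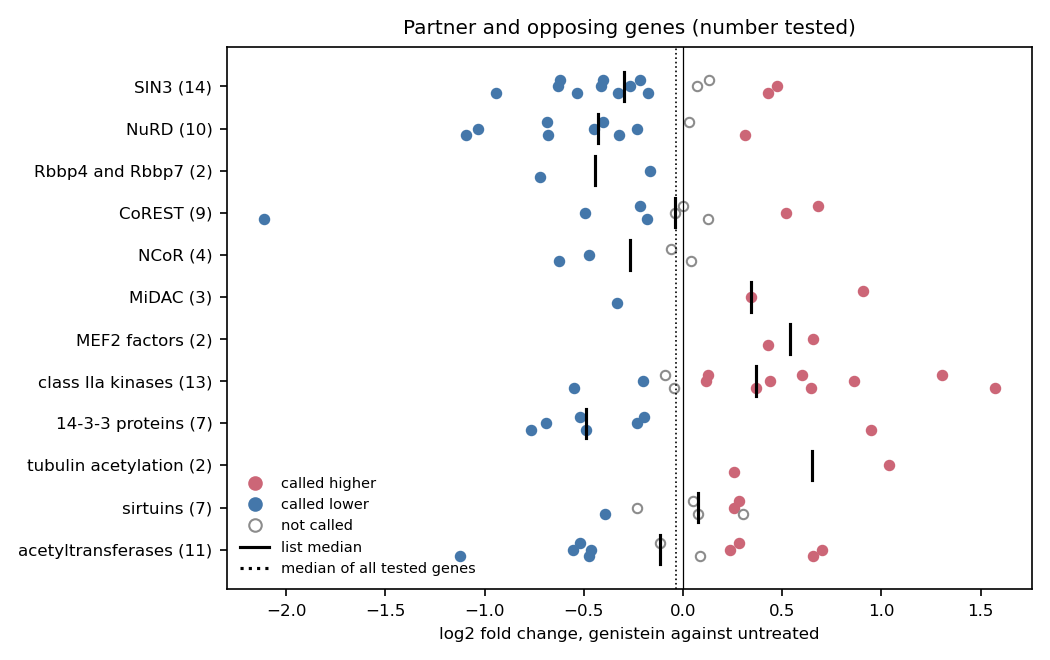
Log2 fold change (horizontal axis) of every tested gene in 12 lists of HDAC partners and opposing enzymes, with filled points for calls (red higher, blue lower), open points for genes not called, and black bars for list medians. The SIN3, NuRD and 14-3-3 lists lie mostly left of 0 (medians -0.30, -0.43 and -0.49) and the class IIa kinases mostly right (0.37).

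Other changes moved with genistein beside these results, and their part in them was not tested. Cdkn1a, the cyclin-dependent kinase inhibitor p21, and Mdm2 rose by 2.78 and 1.62 on the log2 scale. Of 15 G1/S genes 14 fell and 1 rose (median -0.58), with Ccne1 (-1.61) and Ccne2 (-1.41) lowest and E2f1 (0.65) higher. Of 15 G2/M genes 7 fell, 3 rose and 5 were not called (median -0.08). Among them Aurkb (-0.70) and Plk1 (-0.56) were lower and Kif20a (0.32) and Cenpf (0.22) higher. Calls over all tested genes were 33.5% higher and 38.2% lower. By flow cytometry the study describes most genistein-exposed cells as shifted to the G2/M phase. Whether the G1/S and G2/M lists follow the phase of the cells was not tested. Of the 12 fibroblast markers, 10 were tested, 2 rose and 8 fell, and their summed level was 445083 to 457227 normalised counts untreated and 423640 to 433198 with genistein. The fibroblast surface marker Thy1 was at 0 in every library and Lum had at most 9.99 normalised counts. Of the 26 markers of other cell types, 9 were at 0 in every library, among them Epcam, Krt5, Adgre1, Cd3e, Sox2 and Myod1. The summed epithelial markers, nearly all Krt14, were 672 to 718 untreated and 109 to 118 with genistein. The immune sum was 192 to 210 and 546 to 570, nearly all Cd68 and Csf1r, with Ptprc at no more than 1.01. The endothelial sum was 25 to 30.7 and 85.3 to 97.2, the muscle sum 31.8 to 37.0 and 265 to 286 (nearly all Des), the pluripotency sum 33.0 to 37.1 and 49.7 to 56.7, and the neural sum 856 to 912 and 742 to 775, nearly all Tubb3.

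The genes, other than members, with the nearest pattern over the 4 libraries were sought for Hdac11 and Hdac2. They were taken whatever their distance and no reference distance was computed, so closeness among so many candidates is no finding about a member. Likeness was the distance between log2 CPM values (counts scaled to library size) centred on their mean over the 4 libraries, among 10246 protein-coding genes with a mean normalised count over 100. The nearest to Hdac11 were Hykk (distance 0.04), Tent5c (0.08) and Mapk1ip1 (0.10), with log2 fold changes of 1.69, 1.67 and 1.6. The nearest to Hdac2 were Med22 (0.0067), Tamm41 (0.010) and Psmc3 (0.016), with log2 fold changes of -0.66, -0.67 and -0.64.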

How the data were processed

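Raw whole-number read counts per gene and repeat subfamily were deposited for 4 libraries. The authors prepared stranded, ribosomal RNA-depleted libraries, used Trim Galore for trimming and STAR for alignment to mm10, kept reads that aligned at many places, and made the deposited counts with TEtranscripts on GENCODE gene and repeat annotations. The strand option of the counter is not given in the sources used here. 1 row that named no feature held 0.00208% to 0.00314% of counts and was left out.

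Counts were tested with edgeR 4.0.16 in R 4.3.3 (filterByExpr by group, TMM scaling over genes and repeats in a single table), which kept 16240 genes and 1118 repeats. Intervals are from the t distribution of the fit. Exon lengths and coordinates are those of GENCODE M21 on GRCm38, the assembly also called mm10, a later release than the counts were made with. Copies of member transcripts were sought with blastn 2.17.0 (200 or more aligned bases, 90% identity or more). Counts were simulated for genistein against untreated over 17358 entries. Of the entries given a change, 95 of 100 at 1.5-fold and 100 of 100 at 2-fold were called, with 20 unchanged entries called. The changed entries were drawn only from those with a mean normalised count over 100, and all others were left unchanged. Far more entries were called in the data, so these rates need not hold there or at lower counts. Chi-square values between replicate libraries, per degree of freedom, were 5.70 (untreated) and 13.1 (genistein), above sampling noise.

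The members, lists and tests were chosen with earlier results of these data known. All members are named, and from each list up to 2 called genes with the largest rise and 2 with the largest fall, every gene of lists of up to 4 genes, Ep300, Crebbp, Cdkn1a and Mdm2. Cell type markers are from fixed lists. 1 gene of the partner lists is not reported here, and the lists were counted without it. Alternatives covered scaling, filter, tool (DESeq2 1.42.0), a replicate block, single libraries left out, exon length and the reads of Gm10093 added to Hdac1.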

Additional observations from a re-analysis of the deposited data

How the results depend on the processing

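The direction of every tested member except Hdac1 was the same under all alternatives run. Adding the reads of Gm10093 turned Hdac1 to -0.058. The calls of Hdac6, Hdac8 and Hdac5 changed as given with each gene. The number of members past the study's thresholds ranged from 0 to 1 on leaving out single libraries, being 0 without either genistein library because the mean of Hdac11 then fell under the minimum. The class I median was -0.16 with library totals as the scale and -0.18 with factors from genes alone, and ranged from -0.26 to -0.19 with single libraries left out. The class IIa median, -0.08 in the report, was -0.012 with library totals and ranged from -0.14 without genistein 1 to -0.018 without genistein 2. These scales moved the median of all tested genes by up to 0.07. Same-numbered libraries of the groups did not deviate together (correlation -0.03), and with the replicate number as a block 3 members were called higher and 4 lower, as without it.

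Without correction for length, the shares of the summed level (untreated, then genistein) were 55.7% and 48.1% for class I, 37.1% and 43.0% for class IIa, 6.88% and 7.68% for class IIb, and 0.322% and 1.27% for class IV. With the reads of Gm10093 added to Hdac1 they were 71.3% and 66.2%, 22.5% and 25.5%, and 5.75% and 6.64%, with 1.66% for class IV with genistein. With the length of the longest coding transcript, the untreated share of class IIa was 25.5%, class IIb had 5.44% and 6.26%, and class IV had 1.62% with genistein. The last 2 scales were chosen after seeing the data, as were the Hdac1 levels with Gm10093 added and the limit to sense copies of at least 1000 aligned bases. Adding every shorter match to a member was not run. The low depth of Hdac9 and Hdac11 limits both genes.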
